A study of Mus musculus with 20 samples.

Results

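Of the 19463 genes in the deposited whole-brain table, 14 were Hox genes, found by a gene symbol made of Hox, a cluster letter from a to d and a number. The GENCODE M21 annotation lists 39 such genes in the mouse, and the other 25 were not analysed here. Poly-A RNA was sequenced from whole brains of male C57BL/6J mice at P21 (3 weeks) and P70 (10 weeks), with 5 Katnal2-KO and 5 wild-type (WT) mice at each age and 20 mice in all. The KO mice descend from the EUCOMM tm1a allele of Katnal2, a katanin-like gene, which was converted by Protamine-Flp mating and then deleted by a cell-permeable Cre (HTNC) applied to embryos at the two-cell stage, so that the deletion is not limited to a cell type. WT mice carried no deletion, and littermates of both genotypes were housed together after weaning. Values below are normalized counts, which are read counts scaled by the authors so that libraries can be compared. The p-values of group differences judge the difference against the spread between mice of a group. Those of correlations come from permutation of mice within groups.

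Hox genes encode homeodomain transcription factors that give cells their position along the head-to-tail axis. They lie in 4 clusters, and within a cluster genes of low paralog number are expressed farther forward, in the hindbrain, while genes of higher number begin farther back, in the posterior hindbrain and the spinal cord. Neurons of the forebrain and midbrain are known to express few of them, so that their RNA in a whole brain is thought to come mainly from the hindbrain and any attached cord. In bulk tissue, fewer cells of a type and less RNA per cell cannot be told apart.

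The 14 genes were mostly of low paralog number. Paralogs 1 to 4 were represented by 9 of 12 annotated genes (Hoxa2, Hoxb2, Hoxa3, Hoxb3, Hoxd3, Hoxa4, Hoxb4, Hoxc4 and Hoxd4), paralogs 5 to 8 by 5 of 11 (Hoxa5, Hoxb5, Hoxc5, Hoxb6 and Hoxb8), and paralogs 9 to 13 by 0 of 16. The numbers did not run without gaps, since paralog groups 2 to 5 had all their annotated genes in the table while groups 1 and 7 had 0 of 3 and 0 of 2, and groups 6 and 8 had 1 of 3 each. The b cluster on chromosome 11 contributed 6 genes (chr11:96281905-96354012, plus strand of GRCm38, from the start of the first to the end of the last of them). The a cluster contributed 4 (chr6:52162417-52213336, minus strand), the c cluster 2 (chr15:102967443-103036852, plus strand) and the d cluster 2 (chr2:74711927-74748442, plus strand). The lowest mean of any gene in the table was 3.05, so an absent Hox gene may lie under that level and is not shown to be silent. The libraries did not mark strand, and 7 of the 14 genes share exon bases with a gene on the opposite strand, as Hoxb3 does with Hoxb3os. Reads of such partners cannot be told apart. Hoxd3 and Hoxd4 also share 388 exon bases with each other.

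RefSeq (GRCm38.p6) gave a promoter window for 8 of the 14 genes. The 250 bases before the RefSeq start of 4 genes are shown, each 5′ to 3′ on the gene's strand. The Hoxa3 window lies inside that gene as GENCODE M21 places it, with a start at 52213336. The 4 genes were picked for their place in the results below. Hoxa3 spread least between mice, Hoxb8 spread most, and Hoxa5 was among the highest in level per kb. Hoxa2 had KO ages that did not overlap, beside 5.17% of all genes lower at P70 without overlap. The age difference of Hoxa2 did not pass adjustment (limma adjusted p = 0.0558). Capitals mark matches on either strand to 5 motifs, which are TGATNNAT (bound by Hox and Pbx proteins together), TGACAG (Meis), CCAAT (NF-Y), GGGCGG (the GC box) and TATAAA (the TATA box), and neighbouring matches can touch or overlap.
Hoxa2 (chr6:52164832-52165081, minus strand): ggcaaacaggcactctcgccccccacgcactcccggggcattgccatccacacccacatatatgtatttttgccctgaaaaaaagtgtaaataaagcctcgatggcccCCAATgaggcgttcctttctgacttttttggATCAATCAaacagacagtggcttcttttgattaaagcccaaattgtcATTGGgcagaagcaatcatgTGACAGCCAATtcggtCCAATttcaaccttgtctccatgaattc
Hoxa3 (chr6:52213068-52213317, minus strand): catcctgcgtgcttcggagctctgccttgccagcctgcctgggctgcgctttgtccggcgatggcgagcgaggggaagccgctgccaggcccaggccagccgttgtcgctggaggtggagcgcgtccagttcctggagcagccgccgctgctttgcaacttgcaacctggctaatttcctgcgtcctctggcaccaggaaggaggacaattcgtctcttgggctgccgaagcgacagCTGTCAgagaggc
Hoxa5 (chr6:52204588-52204837, minus strand): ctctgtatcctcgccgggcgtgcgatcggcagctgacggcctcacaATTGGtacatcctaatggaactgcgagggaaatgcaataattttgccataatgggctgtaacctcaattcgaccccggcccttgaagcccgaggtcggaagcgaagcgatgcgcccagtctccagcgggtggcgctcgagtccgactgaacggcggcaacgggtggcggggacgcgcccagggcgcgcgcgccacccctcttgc
Hoxb8 (chr11:96281655-96281904, plus strand): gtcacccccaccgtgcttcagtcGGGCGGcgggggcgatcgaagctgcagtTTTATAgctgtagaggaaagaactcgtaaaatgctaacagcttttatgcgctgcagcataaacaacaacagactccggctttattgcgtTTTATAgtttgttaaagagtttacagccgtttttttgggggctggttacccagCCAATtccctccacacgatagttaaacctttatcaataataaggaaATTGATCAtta
The Hox and Pbx motif occurred in 2 of the 8 Hox windows, those of Hoxa2 and Hoxb8, and in 7.68% of all 32851 windows of this length. The Meis motif was also found in 2 of 8 windows, against 15.9% of all windows. CCAAT was present in 5 of 8 windows against 33.8% of all, the GC box in 2 of 8 against 32.7%, and TATAAA in 2 of 8 against 12.4%. The Hox windows held a median of 12 CpG dinucleotides, and all windows a median of 6. These matches describe the letters of the windows and show no binding.

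As a check of the labels, Katnal2 was between 78.1 and 96.0 in P21 KO mice and between 99.3 and 115 in P21 WT mice, so those groups did not overlap, while at P70 the KO mice (95.1 to 126) and WT mice (101 to 142) overlapped. Poly-A RNA of a deleted gene can still be counted outside the deleted exon. The spacing of low values gave an approximate depth in 12 of 20 mice, of 23400000 to 35400000 reads. Among these 12, every P21 mouse had a greater depth than every P70 mouse. There 1 read stood for 0.783 to 0.980 normalized counts at P21 and for 1.14 to 1.17 at P70. A low Hox gene was thus more readily counted as 0 at P70. In those 12 mice all Hox genes together rested on about 28 to 755 reads, so the low values below carry a large counting error.

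The summed value of the 14 Hox genes differed widely between mice of the same group. In P21 WT mice 1 to 5 the sum was 42.5, 323, 96.0, 406 and 261, with a mean of 226 ± 153 (SD, n = 5). In P21 KO mice 1 to 5 it was 487, 163, 740, 320 and 292, with a mean of 400.3 ± 222 (SD, n = 5). Mouse 3 of the P21 KO group had the highest sum of all 20 mice, and WT mice 1 and 3 lay below every KO mouse of that age. In P70 WT mice 1 to 5 the sum was 50.5, 241, 97.2, 129 and 240 (mean 151 ± 85.7, SD, n = 5). In P70 KO mice 1 to 5 it was 53.8, 33.0, 207, 175 and 389 (mean 171 ± 143, SD, n = 5). Both P70 groups reached from about 50 or below to well above 200, and they overlapped along nearly all of that range. The highest sum was 22.4 times the lowest over all mice, and between 4.55 and 11.8 times within a group. For comparison, the ratio of group means was 1.77 for KO over WT at P21, 1.13 at P70, 2.34 for P21 over P70 in KO mice and 1.49 in WT mice.

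**Figure D1:**
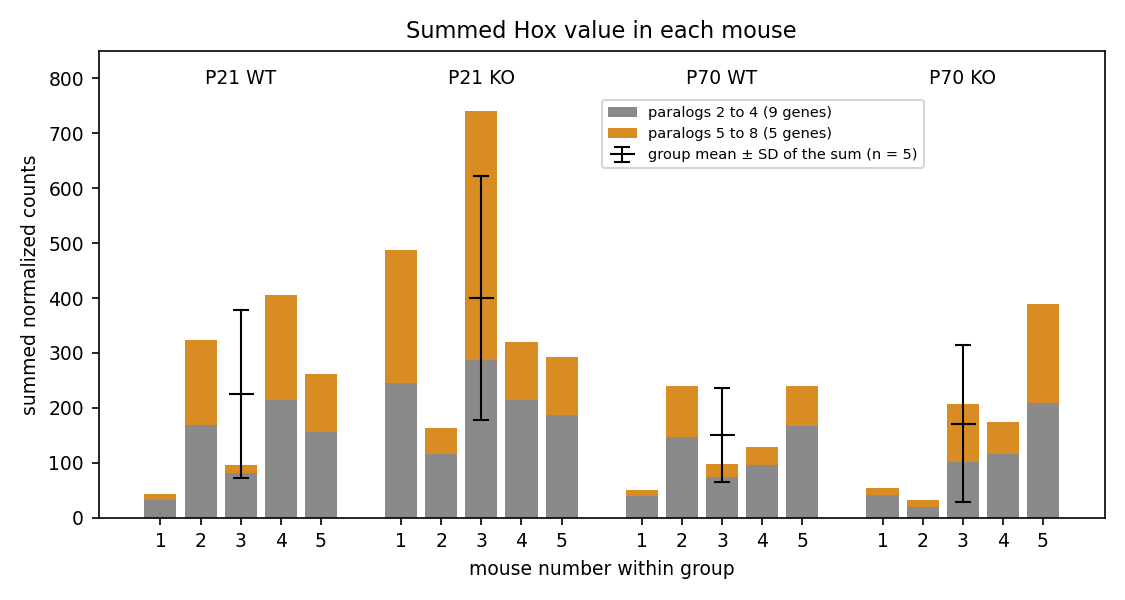
Sum of the normalized counts of the 14 Hox genes (vertical axis) in each of the 20 mice (horizontal axis, mouse number within group), with paralogs 2 to 4 in grey and paralogs 5 to 8 in orange, and the mean ± SD of each group of 5 as a black bar. Sums run from 33.0 to 740, and the orange share is largest in P21 KO mouse 3, at 61.2%.

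The more posterior genes varied more. Paralogs 5 to 8 made up 14.48% of the sum in P21 WT mouse 3 and 61.2% in P21 KO mouse 3, with a median of 34.8% over all mice. Within groups, the SD of log2(value + 1) ran from 1.17 to 2.12 over the 5 genes of paralogs 5 to 8 (median 1.57) and from 0.69 to 1.5 over the 9 genes of paralogs 2 to 4 (median 1.01). This is a description over few genes of shared clusters, and their levels also differ.

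Hoxb8, the most posterior of the 14, was the most uneven. It measured 0, 15.9, 0, 19.1 and 12.97 in P21 WT mice 1 to 5, and 34.1, 0, 144, 5.24 and 1.346 in P21 KO mice 1 to 5. At P70 it measured 0, 1.48, 0, 0 and 7.77 in WT mice and 0, 0, 4.56, 0 and 9.32 in KO mice. Hoxb8 was thus at 0 in 9 of 20 mice, spread over all 4 groups, and a single P21 KO mouse held the highest value. Hoxb6 was at 0 in 8 mice and reached 48.1 in that same P21 KO mouse 3. By contrast, 8 of the 14 genes were above 0 in all 20 mice, Hoxa3 and Hoxb5 among them.

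Hoxb5, which acts in the posterior hindbrain and cord, had the highest level per kb of transcript, at 22.1 ± 18.5 (SD, n = 20 mice), followed by Hoxa5 at 15.9 ± 14.9 and Hoxb3 at 12.6 ± 8.18. Neighbours in this order differed by less than the SD between mice. The lowest levels per kb belonged to Hoxd4 (2.78 ± 1.79) and Hoxc5 (2.84 ± 2.07).

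Hoxb5 measured 6.60, 62.2, 3.96, 88.4 and 52.4 in P21 WT mice 1 to 5 and 93.1, 23.3, 128, 48.3 and 49.7 in P21 KO mice 1 to 5. At P70 it measured 4.71, 52.9, 8.35, 18.3 and 33.5 in WT mice and 2.33, 7.16, 41.4, 32.8 and 78.7 in KO mice. The mice that were low in the Hox sum were low here too, in each of the 4 groups, though Hoxb5 is itself a part of that sum. Hoxa5, needed for neurons that control breathing and for the neck and upper chest skeleton, ran from 0.783 in P21 WT mouse 1 to 109 in P21 KO mouse 3. Hoxb4 ran from 1.17 to 29.9 and Hoxc5 from 0 to 23.2.

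**Figure D2:**
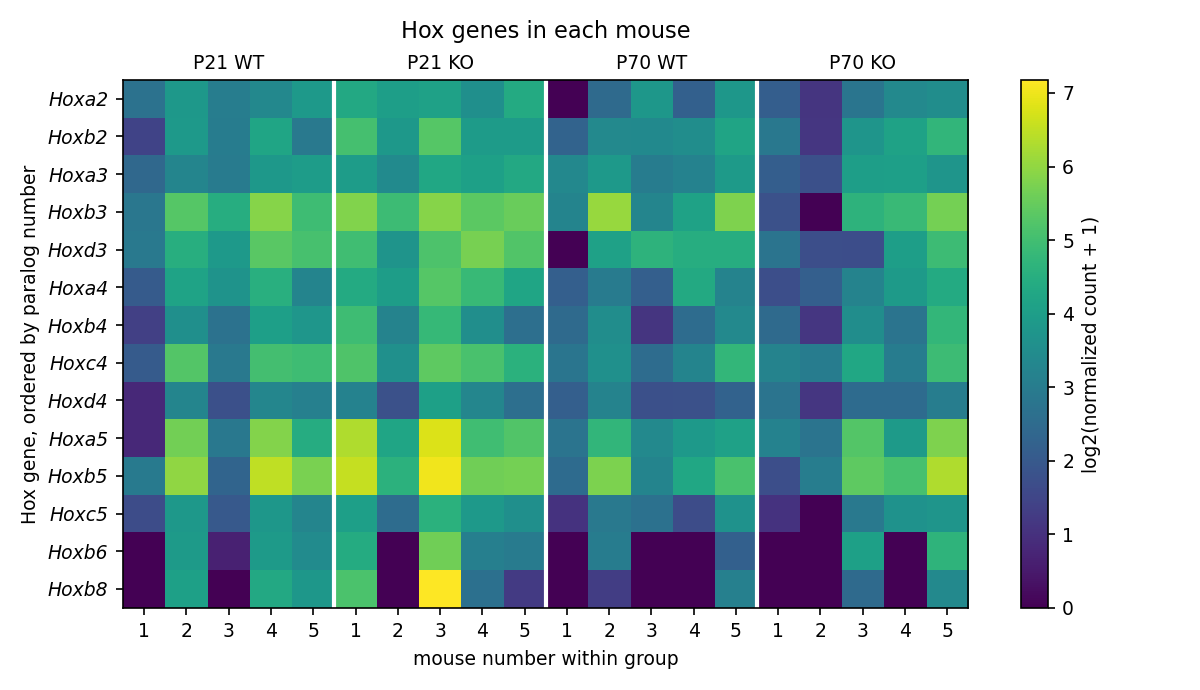
Level of each of the 14 Hox genes (rows, by paralog number) in each of the 20 mice (columns, by group and mouse number) as log2(normalized count + 1), with brighter colours for higher levels. Whole columns are dark or bright together, and Hoxb6 and Hoxb8 are at 0 in 8 and 9 mice.

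Spread of this size was uncommon among genes of like level. Each Hox gene was set beside the genes whose mean over the 20 mice lay within 2-fold of its own. All 14 had a within-group SD above the median of those genes, 12 lay above 90% of them and 9 above 95%. The within-group SD was 1.57 for Hoxb5 against a median of 0.36 for its 2826 like genes, and 1.5 for Hoxb3 against 0.39 for 2874 genes. Hoxa3 had the smallest SD of the 14, at 0.69 against a median of 0.57.

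**Figure D3:**
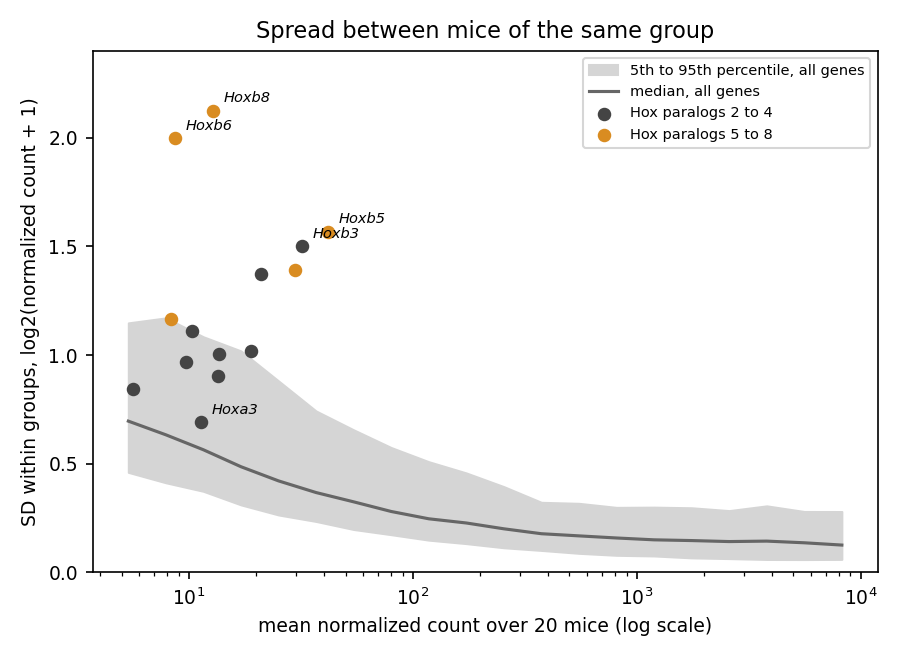
Within-group SD of log2(normalized count + 1) (vertical axis) against the mean normalized count over 20 mice (horizontal axis, log scale), with all genes as a grey line (median) and band (5th to 95th percentile) and the Hox genes as points. Points for Hoxb8, Hoxb6, Hoxb5 and Hoxb3 stand well above the band, and Hoxa3 stands just above the line.

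The genes moved together from mouse to mouse. After each gene was centred on its group means, all 91 pairs of Hox genes had a positive Pearson r over the 20 mice, with a median of 0.71 (0.30 to 0.90). Pairs from different clusters, which lie on different chromosomes, had a median of 0.71 over 68 pairs, and pairs within a cluster 0.73 over 23. These values share the libraries and their counting error and are given as a description.

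Outside the family, 17627 genes with a mean of at least 10 were compared with the mean profile of the 10 Hox genes at that level. Likeness was Pearson's r over 20 mice, centred on group means. The most alike was Mab21l2, a developmental gene, at 0.91, with 73.7 to 184 normalized counts. Next came Slc6a5 at 0.81, the glycine transporter of inhibitory neurons in the hindbrain and cord, then Slc18a3 at 0.81, the vesicular acetylcholine transporter, and Prph at 0.79, an intermediate filament of motor and sensory neurons. The list of 10 went on with Dnah14 (0.79), 4930426D05Rik (0.78), Adgrg1 (0.77), Sncg (0.76), Dnajb12 (0.76) and Xkrx (0.76). In Dnajb12 (1334 and 1307) and 4930426D05Rik (51.9 and 41.9), P70 KO mouse 5 and P70 WT mouse 5 were the highest of all 20 mice. That did not hold for Dnah14, Adgrg1, Sncg or Xkrx. The ranking was not recomputed without the mice numbered 5. The 5 most opposite were Usp37 (-0.80), Gm45631 (-0.77), Gm10635 (-0.77), Gm45709 (-0.75) and Cavin2 (-0.74). An r above 0.5 was found for 696 genes and an r below -0.5 for 954, so likeness by itself was common.

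The label of hindbrain content was checked against marker lists of brain regions and neighbouring tissues. Of 17 measured genes of hindbrain and cord neurons, 16 had a positive r with the Hox profile, with a median of 0.35 (-0.30 to 0.81), and their summed level had an r of 0.93. The list also holds the transporter Slc6a5 with a mean of 857, far above its next genes Tph2 (227) and Uncx (189). Other lists had summed levels with r of -0.31 for cerebellum (10 genes), 0.03 for forebrain (12), -0.33 for thalamus and midbrain (7), 0.27 for olfactory bulb (4), 0.20 for oligodendrocytes (10), 0.35 for peripheral nerve and sensory ganglion (6), 0.34 for pituitary (5), 0.33 for skeletal muscle (3), -0.13 for blood (4) and 0.14 for meninges (6). The hindbrain and cord list thus had the largest summed r of these lists, by description and with no test between lists. A positive sign was not particular to it. All measured genes were positive for peripheral nerve (6 of 6, median 0.28), pituitary (5 of 5, 0.26) and skeletal muscle (3 of 3, 0.25). For cerebellum 3 of 10 were, for forebrain 5 of 12, and for thalamus and midbrain 1 of 7. Over the 17627 genes compared above the median r was 0.01.

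Hoxb3, which patterns the middle of the hindbrain, was tested against 8 single genes over the 20 mice, centred on group means, with two-sided permutation of mice within groups. It measured 6.22, 37.6, 21.3, 57.2 and 29.9 in P21 WT mice 1 to 5, and 55.5, 29.6, 57.4, 40.4 and 45.02 in P21 KO mice. At P70 it measured 8.37, 66.4, 8.63, 16.7 and 54.0 in WT mice and 2.46, 0, 23.9, 27.9 and 49.8 in KO mice. P70 KO mice 1 and 2 and P21 WT mouse 1 were the lowest of all. Slc6a5 followed it with r = 0.76 (permutation p = 0.00075, adjusted over the 8 genes 0.006) and rho = 0.74 (permutation p = 0.00264, adjusted 0.0211). Without the 2 mice farthest from the median of Hoxb3, P70 KO mice 2 and 5, r was 0.67 (permutation p = 0.0122, adjusted 0.0499) and rho 0.66 (permutation p = 0.0156, adjusted 0.0634). Within P21 alone r was 0.85 over 10 mice (permutation p = 0.0025, adjusted 0.02) and rho 0.85 (permutation p = 0.0106, adjusted 0.0846). Within P70 alone r was 0.76 (permutation p = 0.0143, adjusted 0.114) and rho 0.76 (permutation p = 0.0223, adjusted 0.094). The rank correlation thus passed the adjusted threshold over the 20 mice and in none of these 3 subsets.

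Results for 4 others of the 8 genes are given here, and none of these 4 passed the adjusted threshold over the 20 mice (adjusted p from 0.541 to 0.748 for r and from 0.257 to 0.732 for rho, by permutation). Their r was 0.20 for Glra1 (a glycine receptor subunit), -0.24 for Cbln3 (cerebellar granule cells), -0.12 for Mog (oligodendrocytes) and 0.33 for Prl (pituitary).

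**Figure D4:**
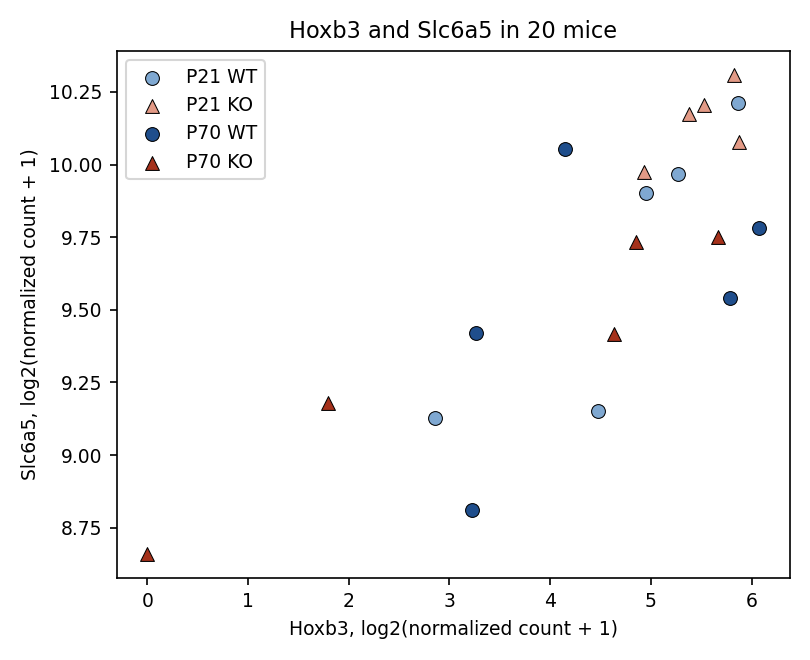
Slc6a5 (vertical axis) against Hoxb3 (horizontal axis), both as log2(normalized count + 1), with 1 point per mouse, circles for WT, triangles for KO, light colours for P21 and dark for P70. P70 KO mouse 2, at 0 in Hoxb3, is lowest in Slc6a5 (403 normalized counts), while P70 WT mouse 4, at 16.7 in Hoxb3, is the highest P70 mouse in Slc6a5 (1063), and r centred on group means is 0.76 over 20 mice.

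At P21, KO and WT brains were compared for the effect of the deletion in young mice. All 14 Hox genes had a higher mean in KO mice, with a median log2 difference of 0.80 (0.54 to 1.58), while 51.8% of all genes were higher and 48.2% lower, and the median over all genes was 0.003. At an unadjusted limma p under 0.05, 4 of the 14 were higher and 0 lower, beside 1.55% of all genes higher and 1.1% lower. After Benjamini-Hochberg adjustment over all genes limma called 0 Hox genes and 0 of the 19463 genes, of which 516 had an unadjusted p under 0.05. Since the 14 genes moved together from mouse to mouse, as given above, these counts do not stand for 14 separate observations.

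The 4 genes were all of paralogs 2 to 4. Hoxb2, which acts in the anterior hindbrain and in the facial motor nucleus, measured 32.2, 13.3, 38.1, 14.4 and 14.3 in P21 KO mice and 1.73, 13.6, 7.05, 17.5 and 6.51 in WT mice. The groups overlapped, with WT mouse 1 lowest and KO mice 1 and 3 highest. Its log2 difference was 1.32 ± 0.48 (SE, n = 5 each), with an unadjusted limma p of 0.017, an adjusted p of 1 and an exact permutation p of 0.0635. Hoxa2, needed for the second pharyngeal arch and the anterior hindbrain, measured 19.0, 15.3, 16.2, 10.9 and 20.02 in KO mice and 5.47, 13.1, 7.22, 9.24 and 13.6 in WT mice. Only KO mouse 4 fell inside the WT range, and the log2 difference was 0.73 ± 0.28 (SE; unadjusted limma p = 0.0207, adjusted 1; exact permutation p = 0.0397).

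Hoxa4, of the posterior hindbrain, measured 19.8, 15.1, 38.1, 27.7 and 17.5 in P21 KO mice and 3.14, 16.8, 11.8, 21.9 and 8.36 in WT mice. WT mice 2 and 4 overlapped the KO mice, and the log2 difference was 1.02 ± 0.42 (SE; unadjusted limma p = 0.0293, adjusted 1; exact permutation p = 0.0635). Hoxa3, needed for the thymus, parathyroid and throat as well as the hindbrain, measured 14.53, 9.72, 18.5, 15.8 and 19.2 in KO mice and 4.41, 8.61, 6.99, 13.1 and 14.7 in WT mice. WT mice 4 and 5 reached into the KO range, and the log2 difference was 0.72 ± 0.31 (SE; unadjusted limma p = 0.0391, adjusted 1; exact permutation p = 0.0635). Of the other 10 genes, Hoxa5 had the largest log2 difference, 1.58 ± 0.83 (SE; exact permutation p = 0.175, adjusted p = 1 in limma).

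The P21 count rested on single mice. Without WT mouse 1, which had the lowest Hox sum of its age, Hoxb2 alone kept an unadjusted p under 0.05 and the median log2 difference of the 14 genes was 0.43. Without WT mouse 4 the count was 7, without KO mouse 3, 4 or 5 it was 2, and in a fit of all 20 mice it was 1. The summed hindbrain and cord list ran from 2537 to 3100 in P21 KO mice and from 1861 to 2782 in P21 WT mice, 12 of its 17 genes were higher in KO mice and 0 passed adjustment. Slc6a5 differed by 0.48 ± 0.19 on the log2 scale (SE; adjusted p = 1 in limma). Lists of other tissues also differed in direction by genotype at P21. All 10 cerebellum genes (median log2 difference 0.07) and 9 of 10 oligodendrocyte genes were higher in KO mice, while all 4 olfactory bulb genes (median -0.54) and all 4 blood genes (median -0.75) were lower. Of the blood genes 3 of 4 had an unadjusted limma p under 0.05, and 0 genes of these lists passed adjustment, as 0 of all 19463 genes did. The part of any of these markers in the genotype difference was not tested.

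P21 KO mouse 3, which was highest in the Hox sum, also had a value of 1112 for the pituitary hormone gene Gh. The summed peripheral nerve list ran from 206 to 818 in P21 KO mice and from 164 to 425 in P21 WT mice. Without the 3 mice with a Gh value above 1000, of which P21 KO mouse 3 and P21 WT mouse 2 belong to this age, 3 Hox genes were higher at an unadjusted p under 0.05 and all 14 still had a higher mean in KO mice.

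At P70 no difference of the Hox genes by genotype was detectable against this spread. Of the 14 genes 9 were higher and 5 lower in KO mice, with a median log2 difference of 0.14 (-1.11 to 0.71), while 47.9% of all genes were higher and 52% lower. In limma 0 of the 14 had an unadjusted p under 0.05, beside 0.719% of all genes higher and 0.658% lower, and 0 of all 19463 genes passed adjustment (268 at an unadjusted p under 0.05). The most negative was Hoxb3, whose P70 values are given above, at -1.11 ± 1.03 (SE; exact permutation p = 0.429, adjusted p = 1 in limma). Without P70 KO mouse 5 only 1 of the 14 genes was higher in KO mice, and without KO mouse 2 it was 12, so the count of directions depended on single mice.

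**Figure D5:**
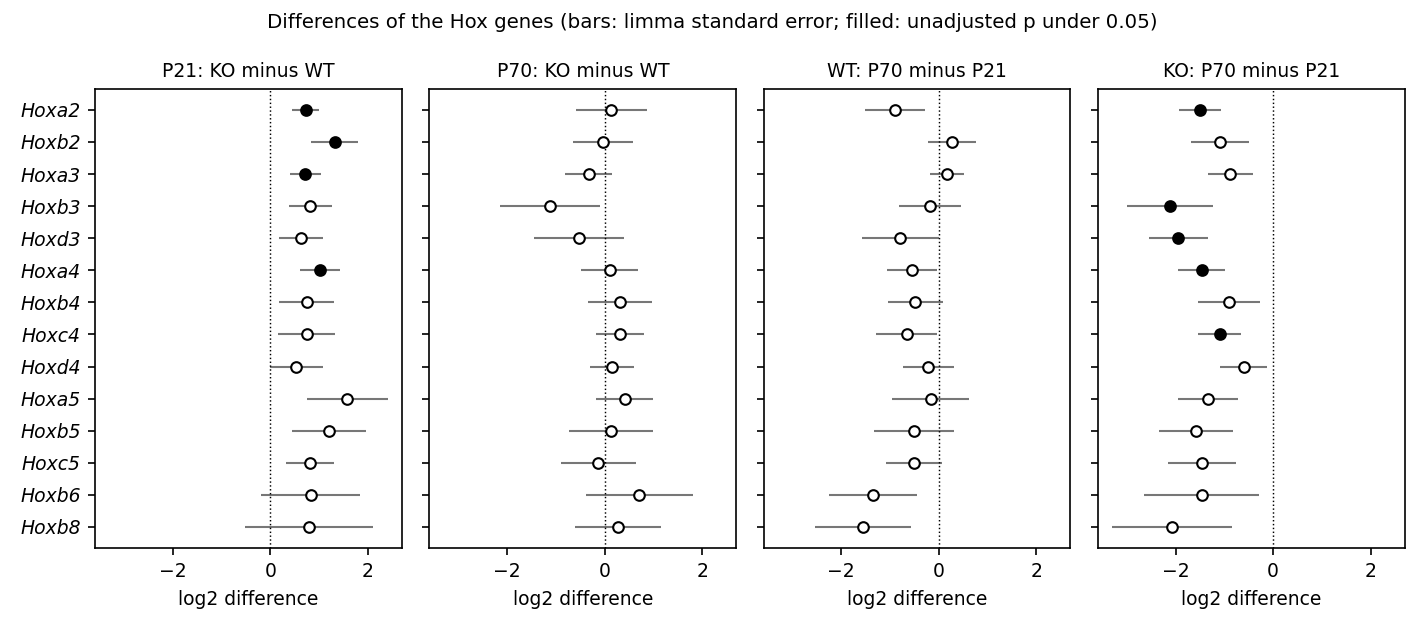
Log2 difference (horizontal axis) of each Hox gene (vertical axis, by paralog number) in 4 comparisons, with the limma standard error as a bar and filled points for an unadjusted p under 0.05. All 14 points are above 0 for KO minus WT at P21, and all 14 are below 0 for P70 minus P21 in KO mice, where 5 are filled.

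Age was compared within each genotype. These comparisons use the same mice as the genotype comparisons, so a high P21 KO group enters both, and the values are given side by side. Depth was also greater at P21 in the mice where it could be approximated, as given above. The part of depth in the age differences was not tested. In WT mice 12 of the 14 Hox genes were lower at P70 and 2 higher (Hoxb2 and Hoxa3), with a median log2 difference of -0.51 (-1.55 to 0.26), while 50.4% of all genes were lower and 49.5% higher. In limma 0 of the 14 had an unadjusted p under 0.05, beside 11.5% of all genes lower and 11.8% higher, and 0 of 14 passed adjustment, beside 4.3% lower and 4.08% higher. The largest difference was that of Hoxb8, at -1.55 ± 0.97 (SE; exact permutation p = 0.286, adjusted p = 0.37 in limma). The WT sums by age differed by less than their spread.

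In KO mice all 14 Hox genes were lower at P70 than at P21, with a median log2 difference of -1.46 (-2.12 to -0.60), while 52.3% of all genes were lower and 47.7% higher. At an unadjusted limma p under 0.05, 5 of 14 were lower, beside 11.2% of all genes, and after adjustment 0 of 14, beside 4.04% of all genes lower and 3.29% higher. The 5 were Hoxa2, Hoxb3, Hoxd3, Hoxa4 and Hoxc4, all of paralogs 2 to 4.

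Hoxa2 was the single Hox gene of the 14 whose KO ages did not overlap. That share is near the 5.17% of all genes that were lower at P70 without overlap. The P70 KO values of Hoxa2 were 3.46, 1.17, 5.85, 9.40 and 10.5. All lay below the P21 KO values given above, of which 10.9 was the lowest. The log2 difference was -1.49 ± 0.43 (SE, n = 5 each; unadjusted limma p = 0.00437, adjusted 0.0558), and the exact permutation p of 0.00794 is the smallest that 5 mice against 5 allow. The P70 WT values of Hoxa2 were 0, 4.61, 12.8, 3.56 and 12.97, which overlapped those of the P21 WT mice.

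Hoxd3, which shapes the first neck vertebra, measured 30.8, 12.1, 35.3, 51.5 and 36.7 in P21 KO mice and 5.82, 2.29, 2.25, 15.2 and 29.2 in P70 KO mice. P70 mice 4 and 5 reached above the lowest P21 mouse, and the log2 difference was -1.94 ± 0.60 (SE; unadjusted limma p = 0.00713, adjusted 0.0738; exact permutation p = 0.0397). Hoxa4 measured 2.28, 3.50, 8.22, 14.1 and 19.97 in P70 KO mice, of which mouse 5 reached into the P21 KO values, and its log2 difference was -1.47 ± 0.48 (SE; unadjusted limma p = 0.0102, adjusted 0.0917; exact permutation p = 0.0397). Hoxb3 had the largest log2 difference of the 14, -2.12 ± 0.88 (SE; unadjusted limma p = 0.0331, adjusted 0.184; exact permutation p = 0.0476).

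Hoxc4, the most anterior gene of the c cluster, measured 35.5, 11.1, 41.0, 33.9 and 23.2 in P21 KO mice and 8.21, 7.13, 18.3, 7.07 and 29.3 in P70 KO mice. P70 mice 3 and 5 overlapped the P21 mice, and the log2 difference was -1.10 ± 0.44 (SE; unadjusted limma p = 0.027, adjusted 0.164; exact permutation p = 0.0635). The more posterior Hoxb8 had a difference nearly as large as that of Hoxb3, -2.07, with a wider error (SE 1.23; exact permutation p = 0.198, adjusted p = 0.371 in limma).

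This comparison turned on P70 KO mouse 5, whose Hox sum of 389 was the highest of its group. Without it, 6 Hox genes passed adjustment in limma, here with log2 difference and adjusted p: Hoxd3 (-2.41, 0.00564), Hoxa2 (-1.72, 0.0126), Hoxa4 (-1.79, 0.0133), Hoxc4 (-1.41, 0.0249), Hoxb3 (-2.68, 0.0358) and Hoxa5 (-1.73, 0.0485). Without it, 9.52% of all genes passed adjustment as lower, against 4.04% with it, so the change was not limited to Hox genes. P70 WT mouse 5 had a like effect in the WT age comparison. There 7.15% of all genes passed adjustment as lower without it, against 4.3% with it. What these mice of the same number share was not tested. Among KO mice, leaving out any single mouse but P70 mouse 5 gave 0 Hox genes after adjustment. The exception was P70 KO mouse 4, without which 1 passed (Hoxa2, limma adjusted p = 0.0494). At an unadjusted p the 5 genes became 3 without P21 KO mouse 1, 3 or 4, without P70 KO mouse 1 or 2, or without the 2 KO mice with a Gh value above 1000, and 8 to 10 without P21 KO mouse 2 or P70 KO mouse 3 or 5.

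Some markers of the hindbrain and cord, and of other tissues, also fell with age in KO mice. The hindbrain and cord sum ran from 1673 to 2671 in P70 KO mice and from 2537 to 3100 in P21 KO mice, and from 1737 to 2368 in P70 WT mice. After adjustment 3 of its 17 genes fell with age in KO mice and 0 rose, beside 4.04% of all genes lower and 3.29% higher, with a median log2 difference of -0.14. The 3 were Glra1 (-1.001 ± 0.18 as log2 difference ± SE, limma adjusted p = 0.00522), Slc6a5 (-0.80 ± 0.18, adjusted 0.0165) and the serotonin transporter gene Slc6a4 (-0.49 ± 0.13, adjusted 0.0372). In WT mice 1 of the 17, Slc6a4, fell with age (-0.56 ± 0.12, limma adjusted p = 0.0121), a share near the 4.3% of all genes that did. Larger shares of some other lists passed as lower with age in KO mice. After adjustment 9 of 10 oligodendrocyte genes (median -1.25), 4 of 10 cerebellum genes (median -0.20) and 2 of 4 blood genes (median -0.87) were lower, and in WT mice 8 of 10, 2 of 10 and 3 of 4 were. The fall with age was thus seen in several lists, with no test between lists, and the part of these markers in the age difference of the Hox genes was not tested.

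The age difference did not pass the test of a difference between genotypes. In the age by genotype interaction all 14 Hox genes had a more negative age difference in KO mice, with a median of -0.93 (-1.93 to -0.12), while 52.5% of all genes had a negative and 47.5% a positive sign. In limma 0 of the 14 had an unadjusted p under 0.05, beside 1.07% of all genes in that direction and 0.812% in the other. Over all genes 0 passed adjustment, and 367 had an unadjusted p under 0.05.

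Genes that work with the Hox proteins or set their expression were counted in the same comparisons. The cofactors of the TALE class, Pbx, Meis and Pknox, bind DNA together with Hox proteins, and are also expressed in the forebrain. In limma 0 of these 9 genes passed adjustment in any of the 4 comparisons (of all genes, 0% in both genotype comparisons and the shares given above with age), with a median log2 difference of -0.07 for KO minus WT at P21, and among the higher members were Meis2 (mean 2734) and Pknox2 (1429). Of 17 measured genes of retinoic acid signalling and other Hox inducers, 0 passed in either genotype comparison, where 0 of all 19463 genes passed, so the count says nothing of the list. With age, beside 4.08% of all genes higher in WT and 3.29% in KO mice, 2 and 4 of the 17 rose. Rarg (0.56 ± 0.15, limma adjusted p = 0.0347) and Rxrg (0.48 ± 0.14, adjusted 0.0465) rose in WT mice. The 4 in KO mice were Egr2 (1.77 ± 0.20, limma adjusted p = 0.000271), an activity-induced gene in the forebrain that also marks rhombomeres in the embryo, Rara (0.63 ± 0.13), Crabp2 (0.63 ± 0.18) and Rxrg (0.40 ± 0.10).

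Polycomb and trithorax proteins keep Hox clusters silent or active. Neither genotype comparison called any of their 20 genes, or any gene of the table. With age 2 of the 20 fell and 1 rose in WT mice (of all genes, 4.3% and 4.08%), and 4 fell and 1 rose in KO mice (4.04% and 3.29%). Among them Ezh2, the Polycomb methyltransferase, fell (-0.56 ± 0.15 in WT, limma adjusted p = 0.0306, and -0.61 ± 0.16 in KO, adjusted p = 0.0398), and Cbx7 rose (0.78 ± 0.09 and 0.82 ± 0.09, adjusted 0.000204 and 0.000306). Jarid2 (-0.25 ± 0.06, limma adjusted p = 0.0331) and Phc1 (-0.25 ± 0.07, adjusted p = 0.0473) fell in KO mice, and their age by genotype interactions did not pass (adjusted p = 1 for both). The 3 highest genes, Kmt2a, Kmt2b and Phc2, passed in no comparison.

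Among noncoding transcripts of the clusters, Hoxaas2, which overlaps Hoxa3 on the opposite strand, measured 18.4, 11.9, 19.3, 9.18 and 9.19 in P21 KO mice and 1.04, 10.4, 10.6, 5.21 and 4.499 in WT mice. WT mice 2 and 3 overlapped the KO mice, and the log2 difference was 1.17 ± 0.45 (SE; adjusted p = 1 in limma). Hotairm1, transcribed from the a cluster, differed by 0.81 ± 0.50 and Haglr, beside Hoxd1, by -0.10 ± 0.33 at P21 (adjusted p = 1 in limma for both).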

How the data were processed

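Whole brains of 20 male mice were sequenced from poly-A libraries prepared with a kit that does not mark strand. Reads were assigned to GRCm38 transcripts with Salmon, and the authors scaled the estimates with DESeq2 (Salmon 1.1.0, R 3.6.2 and DESeq2 1.26.0 per the labels' processing notes), and the deposited signal values are these normalized counts. The values are not whole numbers, so whole reads could not be recovered and a count model was not used. Their column totals (27310523 to 28423042) do not show depth. Genes without a row could not be assessed, and the filter that left genes with a mean of at least 3.05 is not given in the sources used here.

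Groups came from the labels of the samples, and each column was matched by its title. IDs were matched to GENCODE M21 (19447 of 19463). limma 3.58.1 in R 4.3.3 (lmFit, eBayes with an intensity trend) was run on log2(value + 1), with a required mean of 1 that all 19463 genes met, on the 10 mice of each comparison or all 20 for the interaction, with Benjamini-Hochberg adjustment over all genes and a threshold of 0.05. A pseudocount of 1 understates fold changes of low genes. Single genes had an exact two-sided permutation test of 5 mice against 5. Correlations used deviations from group means and 100000 permutations within groups (Python 3.11.15). Levels per kb divide by the median length of a gene's protein-coding transcripts. The fit was tested on simulated data.

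Named genes were Katnal2, all Hox genes, members past the adjusted or, where there were none, the unadjusted threshold in each comparison, the 10 most alike and 5 most opposite genes, and the 3 highest genes of each list, of which some are given here, and some genes of the lists and correlations are not reported here. The members, marker lists and tests were chosen with earlier results of these data known. Alternatives were no trend, quantile normalization, a mean of at least 10, no filter, pseudocounts of 0.5 and 5, the replicate number as a block, 1 fit of all mice, and each mouse left out. Leaving out mice with Gh above 1000, or both P70 mice numbered 5, was added after seeing the data. Promoter windows came from RefSeq.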

Additional observations from a re-analysis of the deposited data

Results flagged for a closer look

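Of 80 groups of 5 values examined, 4 (5%) held a mouse whose gap to the next was large for its group by Dixon's 95% limit, which chance gives in about 1 in 20. Hoxb8 in the P21 KO group had its gap at 0.763 of the range, with 144 in mouse 3 against 34.1 in the next. Hoxb8 in the P70 WT group was at 0.81, with 7.77 in mouse 5 against 1.48. Hoxd4 in the P70 WT group was at 0.765, with 8.28 in mouse 2 against 3.78. Prph in the P70 KO group was at 0.9, with 243 in mouse 5 against 86.2. The first and last of these mice had the highest Hox sums of their groups.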

How the results depend on the processing

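Of 698 values recomputed under other settings, 614 were classed as unchanged, 53 lost the threshold or fell in count, 27 gained it and 4 correlations reversed sign. A change of sign in the ratio of Hox sums was not counted as a reversal. No ratio of Hox sums was classed as moved, beside a within-group SD of the log2 sum of 1.183. Shifts below that SD, about as large as the largest log2 ratio (-1.223 for KO age), were not counted. Counts that stayed at 0 and small changes in count were also classed as unchanged. The number of unchanged values is thus no measure of stability. The P70 KO over WT log2 ratio, 0.179 with all mice, ran from -0.37 to 0.44 with single mice left out. All 14 Hox genes stayed higher in P21 KO mice under each setting except without KO mouse 3 (13), and no setting called a Hox gene after adjustment in that comparison. The 10 members at a mean of 10 or more had the same direction. In the KO age comparison the count of Hox genes after adjustment was 1 with a pseudocount of 5 (Hoxa2), 1 with the replicate block (Hoxd3), and 6 without both P70 mice numbered 5. There the count at an unadjusted p was 9 with the block, 3 without the Gh mice and 10 without the mice numbered 5. Genes called over all were 906 with the block, 696 without the Gh mice and 3696 without the mice numbered 5, against 1427. Without the mice numbered 5, WT age called 2884 genes against 1631 and 1 Hox gene was lower at an unadjusted p (Hoxb8), and P70 KO against WT called 1 gene. With all 20 mice in 1 fit the P21 count of Hox genes was 1. For these the cause was not tested, beyond the change in the mice fitted.

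Leaving out 1 mouse gave ranges of 1 to 7 Hox genes higher at an unadjusted p at P21, 3 to 10 lower in the KO age comparison, 0 to 6 after adjustment there, 0 to 1 lower at P70, 0 to 2 lower with age in WT, and 0 to 2 in the interaction. Genes called over all ranged from 0 to 1 at P21, 886 to 3696 in KO age and 880 to 2884 in WT age. The log2 ratio of mean Hox sums ranged from 0.48 to 1.15 at P21, -0.37 to 0.44 at P70, -0.84 to -0.25 for WT age and -1.77 to -0.88 for KO age.

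The correlation of Hoxb3 with Slc6a5 lost the adjusted threshold at P70 alone as r (0.76), and as rho at P21 alone, at P70 alone and without the 2 farthest mice (adjusted p = 0.0846, 0.094 and 0.0634 by permutation), all with fewer mice. Not centred, Glra1 gained it by rho (0.51, adjusted p = 0.0451 by permutation) and not by r. Reversed signs, each of a gene not past the threshold, were found for Glra1 at P70 alone (-0.0073), Cbln3 not centred (0.22), and Mog not centred (0.37) and at P21 alone (0.074). Deviations of KO and WT mice that carry the same number had an r from -0.009 to 0.26 at P21 (2 of 5 pairs above 0.1, 3 of 5 mice most alike their own number) and from 0.07 to 0.71 at P70 (4 of 5 and 4 of 5). Not every pair exceeded 0.1, so the number was not taken as a pairing, but something shared by same-numbered P70 mice was not tested. The block changed no other count of Hox genes past 1.5 times. Low read numbers limit Hoxb6 and Hoxb8 most, where 0 does not show absence.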
